A study of Homo sapiens with 10 samples.

Results

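Genes of the transforming growth factor beta (TGF-beta) pathway were compared between the ROBO1-positive and ROBO1-negative cells of one colorectal cancer line. The group holds 10 genes, taken from the count files by symbol: the ligands TGFB1, TGFB2 and TGFB3, the latent binding proteins LTBP1 and LTBP2, the receptors TGFBR1, TGFBR2 and TGFBR3, the signal transducer SMAD3 and the matrix protein TGFBI. All 10 were among the 26485 genes listed, and all 10 passed the filter on low counts, which left 14932 genes. The line is SW480, an established line of colorectal cancer epithelial cells with the labelled genotype WT, grown in serum-containing medium without any stated treatment. Flow cytometry with an antibody to the surface receptor ROBO1 separated the line into SW480-CBC (ROBO1pos) and SW480-RSC (ROBO1neg), and RNA came straight from the sorted cells, with 5 libraries of polyadenylated RNA for each. The study set out to compare gene expression between these 2 subtypes. All libraries thus come from 1 cell line. The labels do not say whether replicates were separate cultures, so the p-values cover only library-to-library spread, part of which may be technical.

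TGF-beta ligands are secreted in a latent form, in which the growth factor stays wrapped in its own propeptide and is tethered to the matrix through latent TGF-beta binding proteins. Once freed by integrins or proteases, the ligand binds the type II receptor TGFBR2, which phosphorylates the type I receptor TGFBR1, and TGFBR1 then phosphorylates SMAD2 and SMAD3, which enter the nucleus with SMAD4. In the colon epithelium the pathway restrains growth, and it is often disabled in colorectal cancers. In other carcinoma cells it is best known for promoting matrix production and mesenchymal features.

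Gene totals ran from 23228686 to 29539100 reads. Levels are in CPM, counts scaled to each library's total over tested genes after TMM scaling, and 1 CPM rested on 23.0 to 29.3 counts. The sorting receptor ROBO1 had 429.5 ± 26.7 CPM (SD, n = 5) in the positive libraries against 7.25 ± 1.47 CPM in the negative ones, which checks the labels. Of the 9 colon epithelial markers, 7 reached a mean of 1 CPM in ROBO1pos and 6 in ROBO1neg, and their summed level was 5320 to 6480 CPM in ROBO1pos and 7190 to 9530 CPM in ROBO1neg. KRT8 and KRT18, the keratins of simple epithelia, carried most of that sum, with means of 2160 and 2340 CPM in ROBO1pos against 3750 and 4100 CPM in ROBO1neg. EPCAM (680 against 303 CPM), VIL1 (503 against 27.7), CDH17 (6.94 against 0.127) and CDX1 (0.744 against 0.0306) were called higher in ROBO1pos. KRT8, KRT18 and CDH1 (34.2 CPM in ROBO1pos against 44.4 in ROBO1neg) were called higher in ROBO1neg, and CDX2 (28.8 against 30) did not pass. KRT20, a keratin of differentiated colonocytes, was at 0 counts in all libraries. Fibroblast markers, which matter here because fibroblasts are a rich source of TGF-beta pathway RNA, summed to 10.4 to 14.1 CPM in ROBO1pos and 14 to 22.7 CPM in ROBO1neg, with 4 and 2 of 9 markers at a mean of 1 CPM or more. COL1A1 (4.87 CPM in ROBO1pos against 14.3 in ROBO1neg) and PDGFRB (1.15 against 2.94) were called higher in ROBO1neg, and LUM (3.73 against 0.0309) and COL1A2 (1.97 against 0.353) in ROBO1pos. Among the other fibroblast markers COL3A1 was at 0 in all libraries, and DCN and FAP were at 0 in all ROBO1neg libraries. Leukocyte markers summed to at most 4.12 CPM, with PTPRC at 0 in all ROBO1neg libraries, and endothelial markers to 0.504 to 0.889 CPM in ROBO1pos and 2.43 to 4.36 CPM in ROBO1neg. TEK was at 0 in all ROBO1pos libraries, and VWF was called higher in ROBO1neg, at 3.2 against 0.449 CPM. The part of these marker levels in the results was not tested.

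Of the 10 genes, 7 were higher in ROBO1neg, 1 (TGFBR1) was higher in ROBO1pos and 2 (SMAD3 and TGFBI) did not pass, by edgeR's quasi-likelihood test at an adjusted p under 0.05. Over all genes tested, 82.0% passed, 40.4% as higher in ROBO1neg and 41.6% as higher in ROBO1pos. With most genes called, the size of a difference says more than the call. The median log2 fold change (ROBO1pos minus ROBO1neg throughout) was -1.07 over the 10 genes and 0.019 over all genes tested. Differences of at least 4-fold towards ROBO1neg were seen in 3 of the 10 genes, TGFB2, LTBP2 and TGFBR3, against 8.30% of all genes tested. In edgeR's test against a 1.5-fold difference (glmTreat), 6 of the 10 genes passed, against 41.8% of all genes, and all 6 were higher in ROBO1neg, against 22.1%.

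The ligands differed most in TGFB2. The stretch before the start of TGFB2 is shown with that of TGFB1, the ligand that differed little, and that of LTBP2, the binding protein with the steepest difference. Each is the 250 bases before the gene's start, on the gene's strand, from RefSeq on GRCh38.p14: chr19:41353923-41354172 (minus strand) for TGFB1, chr1:218345086-218345335 (plus strand) for TGFB2 and chr14:74612238-74612487 (minus strand) for LTBP2. Capitals mark all matches on either strand to 5 short motifs, GGGCGG (the GC box bound by SP1), CAGAC (a SMAD-binding motif), GGAATG (bound by TEAD factors), TGANTCA (AP-1) and TGACGTCA (the cyclic AMP response element).
TGFB1: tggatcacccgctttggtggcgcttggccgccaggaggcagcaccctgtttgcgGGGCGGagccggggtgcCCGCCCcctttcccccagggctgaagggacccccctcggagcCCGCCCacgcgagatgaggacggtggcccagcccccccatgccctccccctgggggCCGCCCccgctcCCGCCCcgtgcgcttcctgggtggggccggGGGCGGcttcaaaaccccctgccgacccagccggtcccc
TGFB2: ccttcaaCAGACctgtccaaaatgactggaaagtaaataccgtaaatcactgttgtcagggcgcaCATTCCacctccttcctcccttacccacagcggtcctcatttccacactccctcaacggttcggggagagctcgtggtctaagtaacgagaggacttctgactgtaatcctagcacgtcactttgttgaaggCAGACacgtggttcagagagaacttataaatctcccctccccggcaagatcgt
LTBP2: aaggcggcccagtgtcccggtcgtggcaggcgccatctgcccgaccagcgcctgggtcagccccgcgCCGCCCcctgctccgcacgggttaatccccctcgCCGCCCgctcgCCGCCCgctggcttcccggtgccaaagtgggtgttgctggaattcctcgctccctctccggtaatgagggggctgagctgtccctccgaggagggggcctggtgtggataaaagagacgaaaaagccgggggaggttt
The TGFB1 stretch held 6 GC boxes and none of the other 4 motifs, and LTBP2 held 3 GC boxes and none of the others. TGFB2 held 0 GC boxes, 2 SMAD motifs and 1 TEAD motif. Of the genes not shown, TGFB3 and LTBP1 also held 2 SMAD motifs and 0 GC boxes each, and LTBP1 held 1 cyclic AMP response element. TGFBR1 held 1 SMAD motif and 0 GC boxes. TGFBR2, TGFBR3, SMAD3 and TGFBI held no SMAD motif, with 0, 2, 4 and 3 GC boxes. Where a gene has several listed starts, only the first listed was read: TGFBR1 has 8, SMAD3 5, LTBP1 3, and TGFB3 and TGFBR2 2 each. The stretches read for TGFBR1 (chr9:99104863-99105112) and TGFBR3 (chr1:91886152-91886401) lie inside the gene spans given below, not before them. No matches overlapped. Among 27305 RefSeq stretches of the same length, 42.3% held a GC box, 37.8% the SMAD motif, 11.9% the TEAD motif, 6.6% the AP-1 motif and 1.77% the cyclic AMP response element. The TGFB1 stretch was 76.8% G and C, that of LTBP2 68.8% and that of TGFB2 50.4%, where the median of all was 58.0%. These matches describe the letters and are not evidence of binding.

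TGFB1, the ligand most widely made by cells, lies on chromosome 19 from 41330323 to 41353922. It was at 56.7, 47.3, 55.3, 62.0 and 60.4 CPM in the 5 ROBO1pos libraries and at 86.7, 70.7, 85.2, 88.6 and 81.6 CPM in the 5 ROBO1neg libraries. The groups did not overlap, but the difference was small: a log2 fold change of -0.55 (SE 0.08, edgeR adjusted p = 9.7e-06), or 1.47-fold, which did not pass the test against 1.5-fold (adjusted p = 0.74). TGFB1 shares 215 bases of exon with HNRNPUL1 on the opposite strand, and while the library kit keeps strand, the strand setting of the counting is not given, so some reads may not be separable. HNRNPUL1, which encodes an RNA-binding protein, was higher in ROBO1pos at 707 ± 31.8 against 417 ± 11.2 CPM.

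TGFB2, the ligand that depends most on the co-receptor TGFBR3 to reach its receptors, lies on chromosome 1 from 218345336 to 218444619. Its counts in ROBO1pos were 4, 8, 21, 8 and 10, or 0.155, 0.296, 0.814, 0.323 and 0.411 CPM. In ROBO1neg it was at 29.5, 25.1, 39.8, 38.4 and 26.7 CPM, on 582 to 1124 counts per library. TGFB2 was thus close to the detection limit in ROBO1pos and at a moderate level in all 5 ROBO1neg libraries. The log2 fold change was -6.30 (SE 0.25, edgeR adjusted p = 1.9e-11), more negative than all but 0.763% of the genes tested. The ratio of summed counts, ROBO1neg over ROBO1pos, was 80.1 (95% exact binomial interval 60.8 to 107.8, which covers counting error only). TGFB2-AS1, an antisense RNA at the locus, was at 0 to 1 counts in ROBO1pos libraries and 8 to 11 in ROBO1neg libraries, too few to pass the filter, and the same limit on strand applies to it. TGFB2-OT1, which shares 1371 bases of exon with TGFB2 on the same strand, was at 0 counts in all libraries. Reads in shared bases may have been set aside as ambiguous, as 0.806% to 0.881% of all reads were. The 0 may thus come from the counting and does not show that TGFB2-OT1 was absent.

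TGFB3, a ligand best known from palate and lung development, lies on chromosome 14 from 75958097 to 75983011. It was at 1.32, 1.33, 1.43, 1.54 and 1.60 CPM in ROBO1pos and at 2.93, 2.89, 2.69, 2.83 and 2.92 CPM in ROBO1neg. The groups did not overlap, and the log2 fold change was -0.98 (SE 0.12, edgeR adjusted p = 3.3e-06). In ROBO1neg it was the ligand with the lowest level per kilobase of exon.

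Ligands can be compared with each other only per length, so CPM was divided by the kilobases of exon in GENCODE 29's basic transcripts. The summed level of the 3 ligands was 20.9 ± 2.11 CPM per kilobase in ROBO1pos and 37.2 ± 3.62 in ROBO1neg (SD, n = 5 each). TGFB1 made up 97.1% ± 0.340 of that sum in ROBO1pos and 80.3% ± 2.02 in ROBO1neg. TGFB2 made up 0.380% ± 0.239 in ROBO1pos and 16.9% ± 2.27 in ROBO1neg, while TGFB3 stood at 2.49% ± 0.176 and 2.79% ± 0.344. These shares depend on the lengths used: TGFB3 has 2776 bases of exon in basic transcripts and 4914 in all transcripts. The share of TGFB2 may be too low if reads in the 1371 bases shared with TGFB2-OT1 were not counted. Within a library, the log2 ratio of TGFB2 to TGFB1 averaged -7.02 ± 0.71 for ROBO1pos and -1.39 ± 0.23 for ROBO1neg (exact permutation test, two-sided, p = 0.00794, and 0.00794 after Benjamini-Hochberg adjustment over 4 such ratios). That p is the smallest that 5 against 5 libraries can give.

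**Figure D1:**
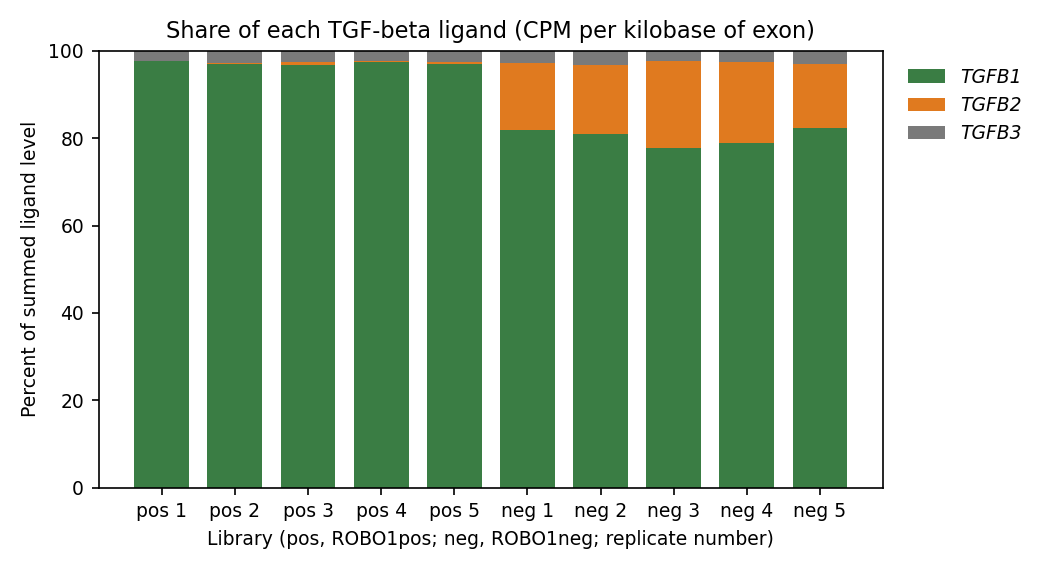
Share of each ligand in the summed ligand level (CPM per kilobase of exon), in percent, with 1 stacked bar per library, 5 ROBO1pos (pos) and 5 ROBO1neg (neg). TGFB2 averages 0.380% in ROBO1pos and 16.9% in ROBO1neg, and TGFB1 is the main ligand in all 10 libraries.

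LTBP1 and LTBP2, the latent binding proteins of the group, were both higher in ROBO1neg, by very different factors. Outside the group, LTBP3 was higher in ROBO1neg (log2 fold change -0.501, SE 0.091) and LTBP4 in ROBO1pos (0.835, SE 0.086). LTBP3 and LTBP4 were named after their values were seen. LTBP1, which anchors the latent ligand in the matrix, lies on chromosome 2 from 32946953 to 33399509. It was at 8.16, 8.64, 7.21, 8.20 and 7.23 CPM in ROBO1pos and at 22.5, 19.6, 15.7, 17.1 and 13.8 CPM in ROBO1neg, without overlap. Its log2 fold change was -1.17 (SE 0.12, edgeR adjusted p = 5.8e-07).

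LTBP2, a fibrillin-binding member of the family that, unlike the others, does not carry latent TGF-beta, lies on chromosome 14 from 74498183 to 74612237. It was at 5.53, 5.30, 5.11, 5.62 and 4.03 CPM in ROBO1pos and at 168, 165, 183, 165 and 195 CPM in ROBO1neg. The lowest ROBO1neg library was far above the highest ROBO1pos library. The log2 fold change was -5.09 (SE 0.08, edgeR adjusted p = 8.3e-15), or 34.2-fold. The log2 ratio of LTBP2 to LTBP1 averaged -0.62 ± 0.14 for ROBO1pos and 3.32 ± 0.37 for ROBO1neg (exact permutation test, two-sided, p = 0.00794; adjusted 0.00794; n = 5 each). Within ROBO1pos libraries LTBP1 thus had more reads than LTBP2, and within ROBO1neg libraries LTBP2 had more than LTBP1.

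The signalling receptors differed unequally between the populations. TGFBR1, the type I receptor kinase, lies on chromosome 9 from 99103647 to 99154192. It was at 169, 177, 170, 161 and 151 CPM in ROBO1pos and at 152, 129, 149, 160 and 148 CPM in ROBO1neg. The groups overlapped, and TGFBR1 was higher in ROBO1pos by a log2 fold change of 0.17 (SE 0.06, edgeR adjusted p = 0.016), or 1.12-fold.

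TGFBR2, the type II receptor kinase that binds the ligand first, lies on chromosome 3 from 30606356 to 30694142. It was at 28.8, 30.5, 32.0, 36.3 and 39.1 CPM in ROBO1pos and at 116, 107, 102, 89.0 and 104 CPM in ROBO1neg. The groups were well apart, with a log2 fold change of -1.63 (SE 0.09, edgeR adjusted p = 3.9e-10), or 3.10-fold. The log2 ratio of TGFBR2 to TGFBR1 within a library differed by -1.80 (exact permutation test, two-sided, p = 0.00794; adjusted 0.00794; n = 5 each).

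TGFBR3, or betaglycan, a co-receptor without kinase activity that presents ligand to TGFBR2, lies on chromosome 1 from 91680343 to 91906002. It was at 2.01, 3.00, 2.6, 3.48 and 3.33 CPM in ROBO1pos and at 15.9, 14.7, 18.8, 15.2 and 13.2 CPM in ROBO1neg. All ROBO1neg libraries lay above all ROBO1pos libraries, with a log2 fold change of -2.43 (SE 0.14, edgeR adjusted p = 9.4e-10), or 5.39-fold. The difference was larger than that of TGFBR2: the log2 ratio of TGFBR3 to TGFBR2 differed by -0.78 (exact permutation test, two-sided, p = 0.00794; adjusted 0.00794; n = 5 each).

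SMAD3 and TGFBI did not pass the threshold. SMAD3, which carries the receptor signal to the genome, lies on chromosome 15 from 67065602 to 67195169. It was at 70.8, 60.0, 76.8, 82.3 and 62.6 CPM in ROBO1pos and at 71.1, 61.5, 84.6, 85.2 and 81.5 CPM in ROBO1neg, with wide overlap. The log2 fold change of -0.12 had an interval from -0.36 to 0.11 (95%, from the SE and 8 residual degrees of freedom) and an edgeR adjusted p of 0.26. TGFBI, a secreted matrix protein named for its induction by TGF-beta, lies on chromosome 5 from 136028988 to 136063818. It was at 103, 90.9, 124, 122 and 83.0 CPM in ROBO1pos and at 91.3, 104, 121, 131 and 161 CPM in ROBO1neg. The log2 fold change was -0.22 (interval -0.55 to 0.11, edgeR adjusted p = 0.17), and its coefficients of variation were 17.6% in ROBO1pos and 22% in ROBO1neg. Without ROBO1neg replicate 1, its lowest ROBO1neg library, TGFBI passed with a log2 fold change of -0.31 (edgeR adjusted p = 0.048).

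**Figure D2:**
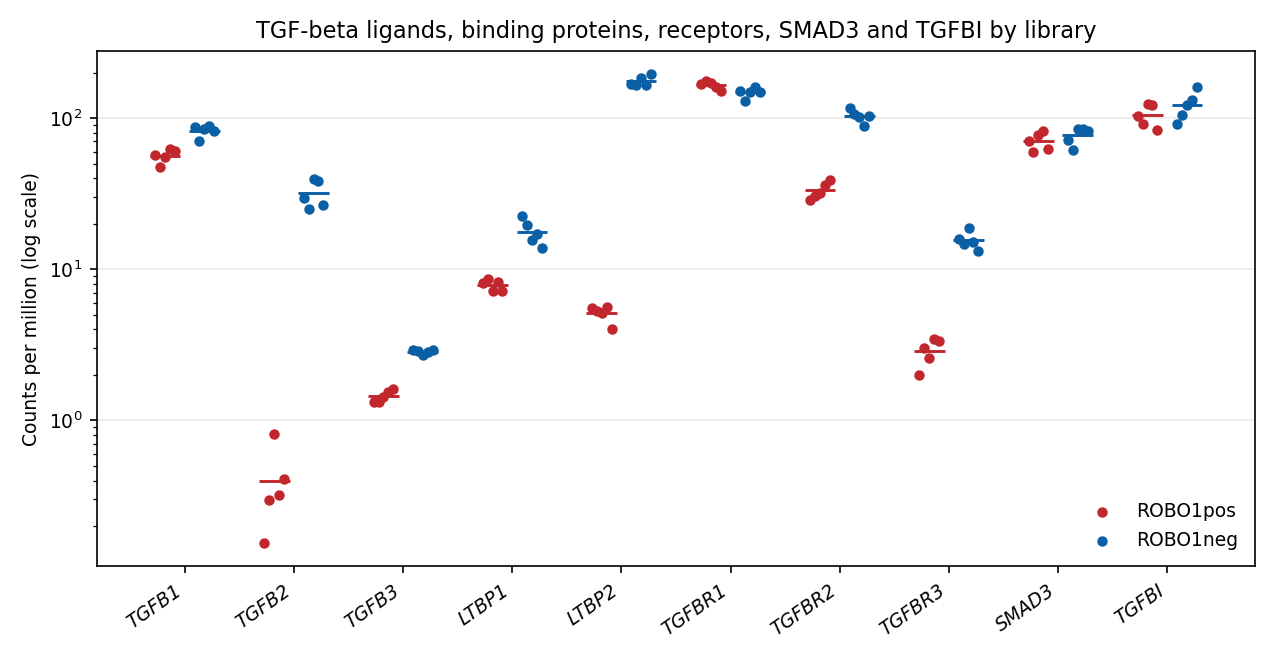
CPM (log scale) of the 10 genes in each of 5 ROBO1pos (red) and 5 ROBO1neg (blue) libraries, with 1 point per library and a bar at the group mean. The groups do not overlap for 7 genes, all higher in ROBO1neg, and overlap for TGFBR1, SMAD3 and TGFBI.

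In 7 of the 10 genes every ROBO1neg library lay above every ROBO1pos library, against 35.7% of all genes tested; separation in either direction was seen in 71.9%. Spread within a group was lowest for TGFB3 in ROBO1neg, at a coefficient of variation of 3.44%, and highest for TGFB2 in ROBO1pos, at 62.3% on 51 counts in all. No gene's group held a library that stood apart from the other 4 by Dixon's test.

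Read density ordered the genes differently in each population. In ROBO1pos the order was TGFBI (36.4 ± 6.40 CPM per kilobase), TGFBR1 (25.1 ± 1.47), TGFB1 (20.4 ± 2.08), SMAD3 (9.75 ± 1.30) and TGFBR2 (7.09 ± 0.903), followed by LTBP1, LTBP2, TGFB3, TGFBR3 and TGFB2, all under 1.3. The libraries of neighbours in this order overlapped for SMAD3 and TGFBR2, for LTBP2 and TGFB3 and for TGFB3 and TGFBR3. In ROBO1neg, TGFBI (42.4 ± 9.33) and TGFB1 (29.8 ± 2.56) overlapped at the top. TGFBR1 (22.3 ± 1.72), TGFBR2 (22 ± 2.10) and LTBP2 (20.5 ± 1.57) followed, each overlapping the next. The receptor kinases, which act as a pair, thus had like read densities in ROBO1neg, whereas in ROBO1pos that of TGFBR1 was the higher. Places in the order depend on the exons counted: with the exons of all GENCODE 29 transcripts, TGFBI came in the third place in ROBO1pos and in the fifth in ROBO1neg.

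**Figure D3:**
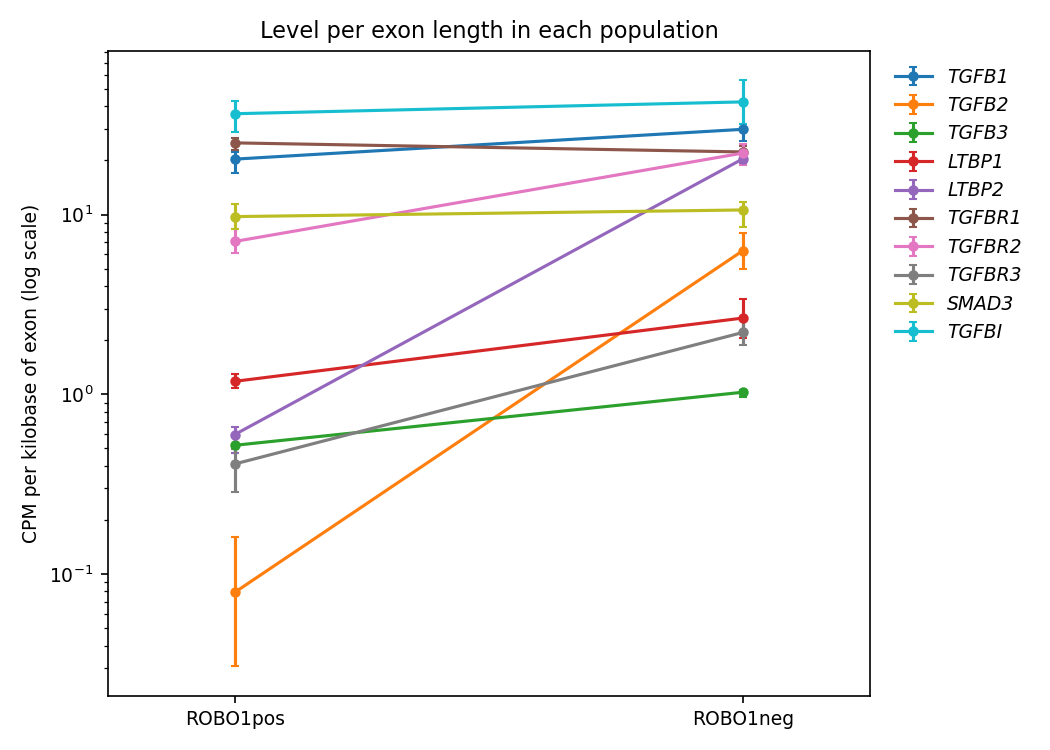
CPM per kilobase of exon (log scale) of the 10 genes in ROBO1pos and ROBO1neg, as the mean of 5 libraries with bars from the lowest to the highest library. TGFB2, LTBP2, TGFBR2 and TGFBR3 climb from ROBO1pos to ROBO1neg, while TGFBI, SMAD3 and TGFBR1 stay nearly level.

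Each gene was also set beside the 40 tested genes nearest to it on its chromosome. The median log2 fold change of those neighbours was 0.61 at TGFB1, 0.85 at TGFB2, 0.80 at SMAD3, -0.69 at TGFBR1 and -0.43 at TGFBR2, and between -0.21 and 0.17 at the other 5 genes. TGFB2 was therefore low in ROBO1pos within a stretch that was high there. With the neighbour median taken off in the fit, the log2 fold change was -1.16 for TGFB1 (edgeR adjusted p = 3.9e-09), -7.15 for TGFB2 and 0.85 for TGFBR1 (edgeR adjusted p = 6.6e-09). SMAD3 went from no call to a log2 fold change of -0.93 (edgeR adjusted p = 1.0e-06). LTBP1, LTBP2, TGFB3, TGFBR2 and TGFBR3 remained higher in ROBO1neg, with values of -1.23, -4.89, -0.80, -1.21 and -2.61. TGFBI stayed without a call at -0.18 (edgeR adjusted p = 0.26). This fit treats the neighbour median as known, and whether DNA copy number differs was not tested.

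**Figure D4:**
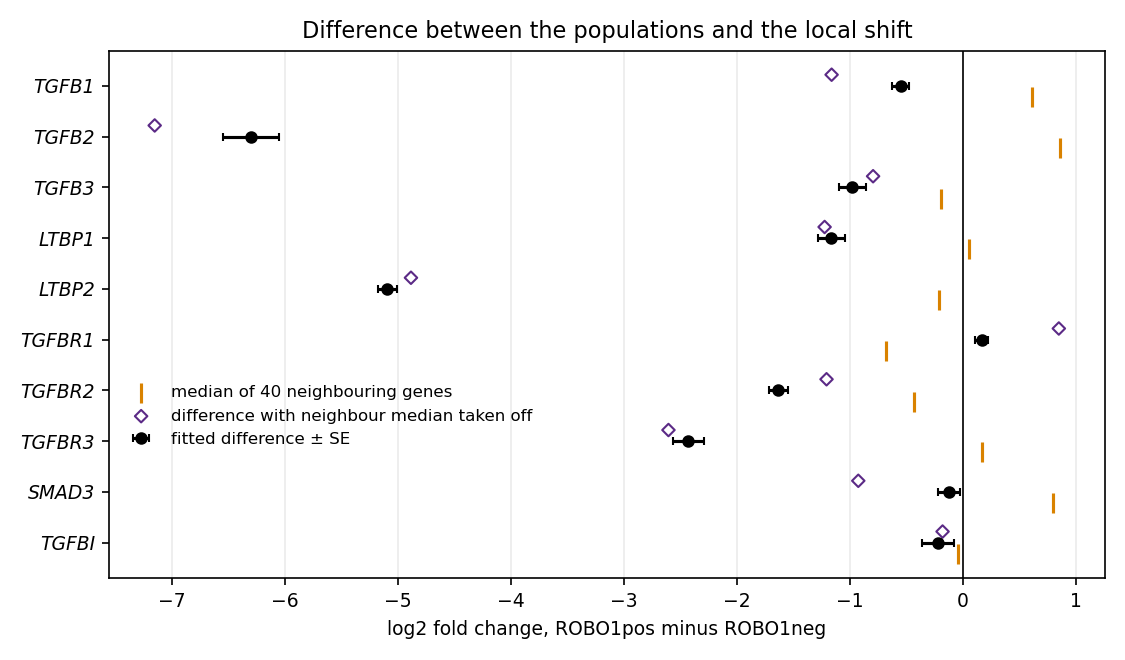
Log2 fold change (ROBO1pos minus ROBO1neg) of the 10 genes as fitted, with its SE (black), the median of the 40 nearest tested genes (orange bar) and the difference with that median taken off (open diamond). TGFB1, TGFB2 and SMAD3 move the most towards ROBO1neg, and TGFBR1 moves from 0.17 to 0.85. Of the differences that shrink, that of TGFBR2 shrinks the most, from -1.63 to -1.21.

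Genes that store and release the latent ligand were mostly higher in ROBO1neg. Of 22 such genes 20 were tested, of which 14 were higher in ROBO1neg and 6 in ROBO1pos, with a median log2 fold change of -0.82. Over all genes tested, 40.4% were called higher in ROBO1neg and 41.6% in ROBO1pos. MMP14, a membrane-bound protease, averaged 101 ± 5.90 CPM in ROBO1neg against 4.02 ± 0.549 for ROBO1pos. ITGB5 and ITGAV, which pair as an integrin that can free the ligand from its propeptide, differed by -4.56 (SE 0.13) and -2.48 (SE 0.07) on the log2 scale. The neighbours of ITGB5 had a median of -0.97, and its value was -3.60 with that taken off. The other integrin subunits of the list were higher in ROBO1neg by less, with log2 fold changes of -1.18 for ITGB8, -0.95 for ITGB6 and -0.22 for ITGB1. ADAMTSL2, a matrix protein that binds LTBP1, was higher in ROBO1pos at 288 ± 59.4 against 23.8 ± 7.66 CPM. Also higher in ROBO1pos were the fibrillins FBN1 and FBN2, LTBP4, EMILIN1 and NRROS. TGM2, a transglutaminase that cross-links matrix proteins, and FN1, or fibronectin, had the most negative log2 fold changes of the list at -7.50 (SE 0.23) and -7.09 (SE 0.26). The genes of this list other than MMP14, ITGB5, ITGAV and ADAMTSL2 were chosen for mention after their values were seen. LRRC32, a cell-surface anchor of latent ligand, had at most 8 counts in any library and was not tested.

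Of 13 accessory receptors and extracellular inhibitors, 6 passed the filter on low counts and were tested. Of these, 5 were higher in ROBO1neg, where 40.4% of all genes tested were, and 1, TGFBRAP1, did not pass. The 7 untested ones, ENG, ACVRL1, VASN, DCN, BGN, ASPN and FST, had at most 13 counts in any library. CD109, a membrane protein that binds TGF-beta, averaged 97.3 ± 13.8 CPM in ROBO1neg against 12.0 ± 1.72 for ROBO1pos. NRP1, a neuropilin co-receptor, was at 38.0 ± 9.30 against 1.45 ± 0.635 CPM. ACVR1, a type I receptor of the superfamily, and FSTL3, a secreted antagonist of activins, were also higher in ROBO1neg, at -1.83 (SE 0.07) and -1.81 (SE 0.13) on the log2 scale. The neighbours of FSTL3 had a median of -0.93, and with this taken off its log2 fold change was -0.89.

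SMADs and their regulators divided. Of 26 tested, 14 were higher in ROBO1pos and 10 in ROBO1neg, where 41.6% and 40.4% of all genes were. Another 2 missed the threshold, and the median log2 fold change was 0.14. PMEPA1, an inhibitor that keeps SMAD2 and SMAD3 from the receptor, averaged 136 ± 13.3 CPM in ROBO1neg against 8.71 ± 1.41 for ROBO1pos. SMAD7, the inhibitory SMAD that pathway activity induces, was at 44.1, 38.9, 37.8, 36.6 and 37.6 CPM in ROBO1neg and at 7.12, 4.71, 6.78, 6.91 and 8.18 CPM in ROBO1pos, without overlap. NEDD4L, a ubiquitin ligase of SMADs, and STRAP, a receptor-binding inhibitor, were higher in ROBO1pos at 0.91 (SE 0.05) and 0.71 (SE 0.04) on the log2 scale. SMAD4, the partner that SMAD2 and SMAD3 need in the nucleus, was low in both populations, with 5.08 ± 0.698 CPM for ROBO1pos against 3.82 ± 0.619 for ROBO1neg and overlapping libraries. SMAD2 was at 76.3 ± 2.59 against 53.5 ± 1.47 CPM. SMAD2, SMAD4, SMAD7 and NEDD4L had neighbour medians of 0.99, 1.00, 1.00 and 1.03. With the neighbour median taken off, SMAD2, SMAD4 and NEDD4L reversed to -0.48, -0.59 and -0.13, all called as higher in ROBO1neg, while SMAD7 went from -2.53 to -3.54. The list then had 7 genes higher in ROBO1pos and 14 in ROBO1neg, against 5806 and 5949 of the 14607 genes in that fit.

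Of 12 genes of SMAD-independent signalling tested, 8 were higher in ROBO1neg and 2 in ROBO1pos, where 40.4% and 41.6% of all genes were. The remaining 2 missed the threshold, and the list's median was -0.34. The 2 genes higher in ROBO1pos became 1 without ROBO1pos replicate 1, ROBO1pos replicate 2 or ROBO1neg replicate 2. SHC1, an adaptor that TGFBR1 can phosphorylate, averaged 180 ± 9.44 CPM in ROBO1neg against 45.7 ± 4.05 for ROBO1pos. The kinase PAK2 was at 153 ± 5.68 CPM in ROBO1pos against 306 ± 6.89 for ROBO1neg, and its log2 fold change was -0.10 with its neighbour median of -0.91 taken off. RHOA, a small GTPase, was at -0.53 (SE 0.03), which was -0.17 with its neighbour median taken off, and TAB1, an activator of the kinase TAK1, was at 0.81 (SE 0.04).

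Of 36 genes tested that TGF-beta is known to induce, 21 were higher in ROBO1neg and 9 in ROBO1pos, where 40.4% and 41.6% of all genes were, and 6 missed the threshold; their median log2 fold change was -0.75. NEDD9, a scaffold of focal adhesions, averaged 118 ± 19.3 CPM in ROBO1neg against 5.28 ± 0.973 for ROBO1pos. PDGFB, a growth factor, was at 102 ± 8.58 against 10.4 ± 1.81 CPM. COL4A1, a basement membrane collagen, went the other way at 90.9 ± 11 CPM in ROBO1pos and 2.13 ± 0.534 in ROBO1neg. The other 8 genes higher in ROBO1pos were COL4A2, COL1A2, SNAI1, SNAI2, JUNB, PTHLH, IL11 and BCL2L11, named to complete the count after their values were seen. KLF10, an early response gene of the pathway, and TAGLN, a smooth muscle gene, did not pass, at -0.02 (SE 0.09) and -0.15 (SE 0.23) on the log2 scale, and were chosen in the same way.

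Genes that TGF-beta represses in epithelial cells numbered 5. Of these, 4 were higher in ROBO1pos and 1 in ROBO1neg, where 41.6% and 40.4% of all genes were. MYC, the growth-promoting transcription factor, averaged 563.5 ± 65.8 CPM in ROBO1pos against 253 ± 24.6 for ROBO1neg. ID1, an inhibitor of helix-loop-helix factors, was at 35.5 ± 2.56 against 4.22 ± 0.928 CPM. ID2, its relative, went the other way at 51.6 ± 7.17 CPM in ROBO1pos and 269.5 ± 24.3 in ROBO1neg. CDC25A, a cell cycle phosphatase, differed by a log2 fold change of 0.32 (SE 0.05), and ID3, named to complete the list, by 0.73 (SE 0.19).

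**Figure D5:**
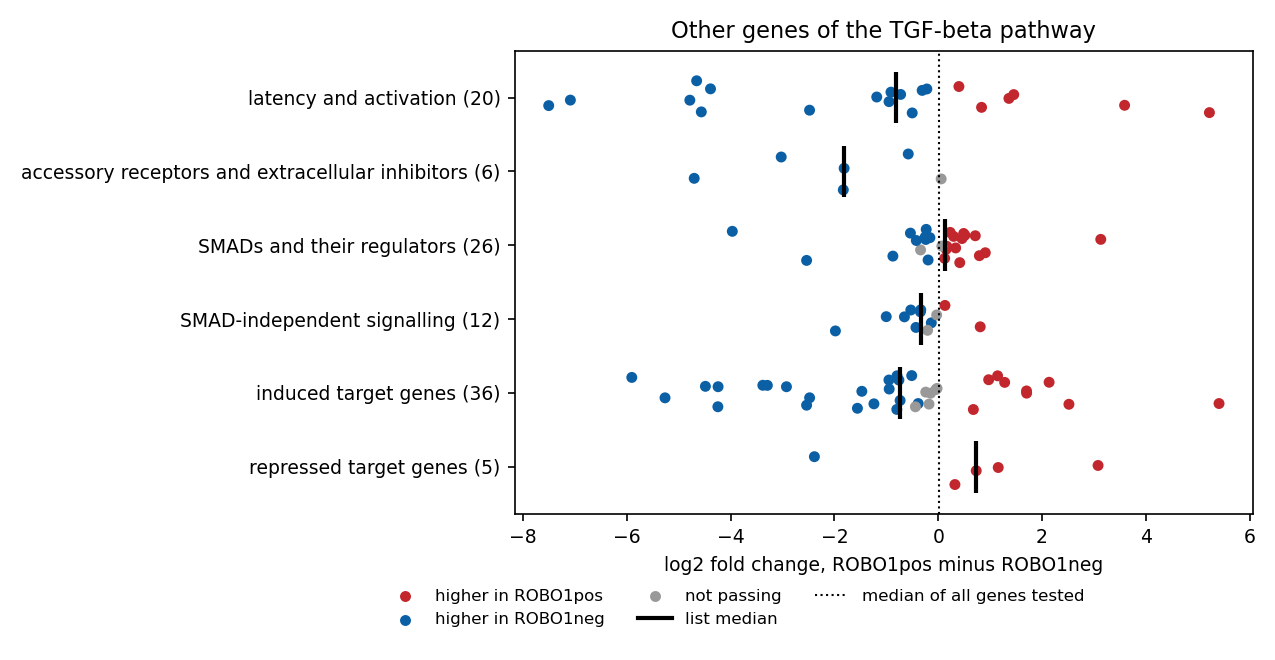
Log2 fold change (ROBO1pos minus ROBO1neg) of the tested genes of 6 lists of the TGF-beta pathway, 1 point per gene, coloured by call, with the list median (bar), the median of all genes tested (dotted line) and the number tested in brackets. List medians run from -1.82 for accessory receptors and inhibitors to 0.73 for the repressed genes.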

How the data were processed

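RNA of 10 libraries (5 ROBO1pos, 5 ROBO1neg) was analysed from raw counts of reads per gene, which the authors deposited without normalisation. The submitters' processing notes name STAR 2.6.0c, SAMtools 1.9, FastQC, bcl2fastq, DESeq2 1.24.0 and the build GRCh38. How reads were counted, with which strand setting and against which annotation, is not stated in the labels. Entries naming no gene (36.2% to 42.5% of reads) were left out.

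Genes were filtered by filterByExpr, scaled by TMM and tested with edgeR 4.0.16 in R 4.3.3. The test was quasi-likelihood, with group as the only term and Benjamini-Hochberg adjustment over all genes tested. In simulated data with 200 of 14932 genes changed, 69.7%, 91% and 100% were called rightly at log2 fold changes of 0.5, 1 and 2. That simulation did not try the fit with most genes changed, whereas 82.0% of genes were called here. Deposited counts were turned into CPM with the scaled library sizes of tested genes, and log2 ratios used a prior count of 2. Alternatives, DESeq2 1.42.0 and limma 3.58.1 among them, are in the closing section. No pair of libraries was a duplicate: within groups, counts differed by 3.59 to 22.3 times the sampling variance. The members and lists were chosen with earlier results of these data known. Named were the 10 genes, ROBO1, SMAD2, SMAD4, SMAD7 and up to 4 called genes per list by smallest adjusted p, at most 3 in 1 direction where both occur; the text says where others were added. 1 gene that the rule names is not reported here. Gene positions came from RefSeq, exon lengths from GENCODE 29. No list was tested as a set.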

Additional observations from a re-analysis of the deposited data

Results flagged for a closer look

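Of 82 group values checked (each named gene's CPM and each log2 ratio in each population), 2 had a library far from the other 4 by Dixon's test, where chance flags about 1 in 20. MMP14 was at 4.97 CPM in ROBO1pos replicate 5 and at 3.60 to 3.99 CPM in the other ROBO1pos libraries. FSTL3 was at 6.94 CPM in the same library and at 4.52 to 4.93 CPM in the others.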

How the results depend on the processing

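The 10 genes gave 199 log2 fold changes under the alternatives, of which 195 kept their direction and call. TGFB3 had no value with the filter of 5 CPM in 5 libraries. Against 1.5-fold, TGFB1 (-0.55, adjusted p = 0.74) and TGFBR1 (0.17, adjusted p = 1) lost their calls, 0 of the 10 genes passed as higher in ROBO1pos, and over all genes 2938 passed in that direction and 3298 towards ROBO1neg (6214 and 6036 in the test against no difference). SMADs and their regulators then had 4 genes higher in ROBO1pos and 3 in ROBO1neg, SMAD-independent genes 1 and 2, and repressed genes 2 and 1. SMAD2, SMAD4, RHOA and CDC25A also lost their calls against 1.5-fold. With the neighbour median taken off, SMAD3 gained a call (-0.93), and SMAD2 (-0.48), SMAD4 (-0.59) and NEDD4L (-0.13) reversed; the cause was not tested. With 1 library left out, the genes higher in ROBO1neg numbered 7 to 8 of 10, TGFBI ranged from -0.31 to -0.10 and TGFB2 from -6.74 to -6.10. The 4 log2 ratios kept direction and call in 11 of 11 alternatives each. With the filter of 5 CPM, latency and activation genes higher in ROBO1pos numbered 2 in place of 6. Accessory genes higher in ROBO1pos were 0 as reported, 1 with upper quartile scaling and 2 by DESeq2 or with no filter beyond 1 count. With the replicate number as a block, TGFB2 was at -6.31 and LTBP2 at -5.09, and no call on the 10 genes changed. SMAD3 came close to a call with the block, at -0.12 (edgeR adjusted p = 0.058, against 0.26 without it). Same-numbered libraries correlated at 0.062 to 0.169 in their deviations, and 8 of 10 libraries correlated best with their own number, a hint of pairing from the data. The labels tie the numbers to no shared day, culture or batch, so the fit without the block was kept. Depth limits TGFB2 in ROBO1pos, which rests on 51 counts.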
